A study of Mus musculus with 6 samples.

Results

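The genes described here are 10 transcriptional targets of the ERK pathway that restrain or relay its signal: the dual-specificity phosphatase genes Dusp4, Dusp5 and Dusp6, the Sprouty genes Spry1, Spry2 and Spry4, the SPRED genes Spred1 and Spred2, and the ETS factor genes Etv4 and Etv5. They were taken by symbol from a table of read counts for 18951 genes, and all 10 were present and passed the filter on low counts, which left 14621 genes for testing. The genes were selected on their measured difference between the groups in these same libraries, so their levels and fold changes below are a description without a test. There are 3 libraries per group, si-Control and si-Rbm22. Both groups are labelled as primary heart muscle cells of C57BL/6 mice at postnatal day 1, used at a purity above 97.5% by cardiac troponin T staining. They were collected 48 h after transfection with a scrambled siRNA or with an siRNA against Rbm22, which encodes an RNA-binding protein of the spliceosome. Whether the replicates stem from separate cell isolations is not stated, so p-values measure only the spread between these samples. Total counts lay between 34269042 and 37344860 reads per library.

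Growth factor receptors such as the FGF receptors switch on RAS, which drives the kinases RAF, MEK and ERK in turn. Active ERK enters the nucleus, where it phosphorylates ETS transcription factors and relieves repression by Capicua. Among the genes then transcribed are brakes on the same pathway: DUSP phosphatases remove the activating phosphates from ERK, Sprouty proteins interfere between the receptor and RAF, and SPRED proteins bring the RAS inactivator neurofibromin to the membrane. ETV4 and ETV5, ETS factors of the PEA3 group, carry the signal on to further genes. In the heart this pathway is known for its part in the growth of muscle cells and in signalling between muscle, epicardium and endothelium. These mRNAs are widely used as a readout of ERK activity, but kinase activity itself was not measured.

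Cardiomyocyte markers were abundant in si-Rbm22 only, which bears on every direction given below. Rbm22, the target of the siRNA, was counted 798, 916 and 774 times under the label si-Control and 533, 466 and 491 times under si-Rbm22 (log2 fold change −0.78, SE 0.097, edgeR adjusted p = 4.22e-06). Markers are counted as higher or lower at an edgeR adjusted p under 0.05, where 43.1% of all genes tested were higher and 38.9% lower. Of 10 cardiomyocyte markers, all 10 were higher in si-Rbm22, with a summed level of 24600 to 38330 CPM (reads scaled to a common library size, with TMM factors) against 47.0 to 54.4 CPM in si-Control, where Myl2, Myl3, Myl7, Nppa and Pln had 0 reads. Of 7 skeletal muscle precursor markers, 6 could be tested and all 6 were lower, at 565.6 to 575.4 CPM in si-Control against 0.133 to 0.472 CPM, with Myod1, Myf5 and Cdh15 at 0 reads in si-Rbm22. All 8 endothelial markers were higher in si-Rbm22 (405.5 to 445.3 against 7.72 to 9.24 CPM, Tie1 and Emcn at 0 in si-Control). So were all 6 epicardial and mesothelial markers (1921 to 2130 against 50.02 to 53.6 CPM, Upk3b and Upk1b at 0) and all 6 macrophage markers (70.2 to 82.2 against 1.74 to 3.11 CPM, Adgre1 at 0). Of 8 fibroblast markers 5 were lower and 2 higher (21410 to 23250 CPM in si-Control, 5623 to 5804 in si-Rbm22, Tcf21 at 0 in si-Control). Of 6 smooth muscle markers 4 were higher and 2 lower, and of 4 Schwann cell markers the 2 tested were higher (85.4 to 94.5 against 1.79 to 2.04 CPM, Sox10 at 0). Of 3 erythroid markers 1 was higher and 1 lower, with sums of 0.552 to 0.992 CPM in si-Control and 0.792 to 1.28 CPM in si-Rbm22 (Hbb-bs at 0 in si-Control). Below, the reference for each si-Rbm22 level is therefore a set of libraries poor in cardiomyocyte transcripts. The si-Rbm22 libraries also held epicardial, endothelial and fibroblast transcripts, so their levels cannot be assigned to cardiomyocytes alone. The part of this difference in the values of the ERK feedback genes was not tested. In bulk RNA, fewer cells that express a gene and less of its RNA per cell cannot be told apart.

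Promoter windows of 300 bases, from 250 before to 50 after a RefSeq start (GRCm38.p6), were at hand for 7 of the 10 genes in 8 windows, Etv5 having 2, and were not at hand for Dusp4, Spry4 and Etv4. They held 57.0% to 74.0% G and C, against a median of 52.7% over all 32851 windows of the table. The core CGGAAG that ETS factors bind was present on either strand in 3 of the 8 windows, those of Dusp6, Spred1 and Spred2, and in 16.9% of all windows. The CArG box, bound by serum response factor, occurred in 1 window, that of Dusp5, and in 1.63% of all windows. Here 2 boxes lay side by side without overlap. None of the 8 windows held TGANTCA (AP-1, in 7.81% of all windows) or TGACGTCA (the cyclic AMP response element, 1.79%). Nor did any hold TGAATGAA (1.30%) or TGAATGGA (1.21%), 2 forms of the Capicua octamer. Each was searched on both strands, and other forms of the octamer were not searched. A match is only a match of letters, and the absence of one concerns these windows alone. The stretches below each hold a match, shown because these genes were all higher in the same libraries. They are read 5′ to 3′ on the strand of the gene, with the matches in capitals (CTTCCG is CGGAAG on the other strand). The Spred1 window held a second core, on the minus strand at position +8 from the RefSeq start, which lies past the end of the stretch shown. The Spred2 match lies past the start that GENCODE M21 gives for that gene.
Dusp5, chr19:53528995-53529104, plus strand: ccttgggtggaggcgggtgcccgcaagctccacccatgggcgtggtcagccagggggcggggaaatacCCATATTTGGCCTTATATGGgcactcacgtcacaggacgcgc
Dusp6, chr10:99263081-99263230, plus strand: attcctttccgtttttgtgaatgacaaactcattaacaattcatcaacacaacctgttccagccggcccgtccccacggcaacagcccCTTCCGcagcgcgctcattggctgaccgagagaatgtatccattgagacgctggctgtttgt
Spred1, chr2:117120991-117121070, plus strand: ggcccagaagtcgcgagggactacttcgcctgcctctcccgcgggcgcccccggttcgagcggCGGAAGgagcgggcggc
Spred2, chr11:19924387-19924416, plus strand: aagacgtcatcgCTTCCGccctacttcctc

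All 10 genes were higher in every si-Rbm22 library than in any library labelled si-Control, by factors from 1.28 for Spred2 to 76.6 for Spry4. The median log2 fold change (si-Rbm22 over si-Control) was 1.72 over the 10 genes and 0.05 over all genes tested. Rises and falls cancel in the latter, and the median absolute log2 fold change of all genes tested was 0.82. Spred2, at 0.36, lay below that size, Spry2, at 0.83, about level with it, and the other members above it. All 10 passed the edgeR threshold (adjusted p under 0.05) in the higher direction, where 43.1% of all genes tested did, and 82.0% passed in either direction. Groups that did not overlap, with si-Rbm22 higher, were found for 44.0% of all genes tested, with si-Rbm22 lower for 40.2%, and in either direction for 84.2%. As the genes were chosen with this contrast known, nothing is read from these counts. Between 34 and 5664 reads per library stood behind each value.

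**Figure D1:**
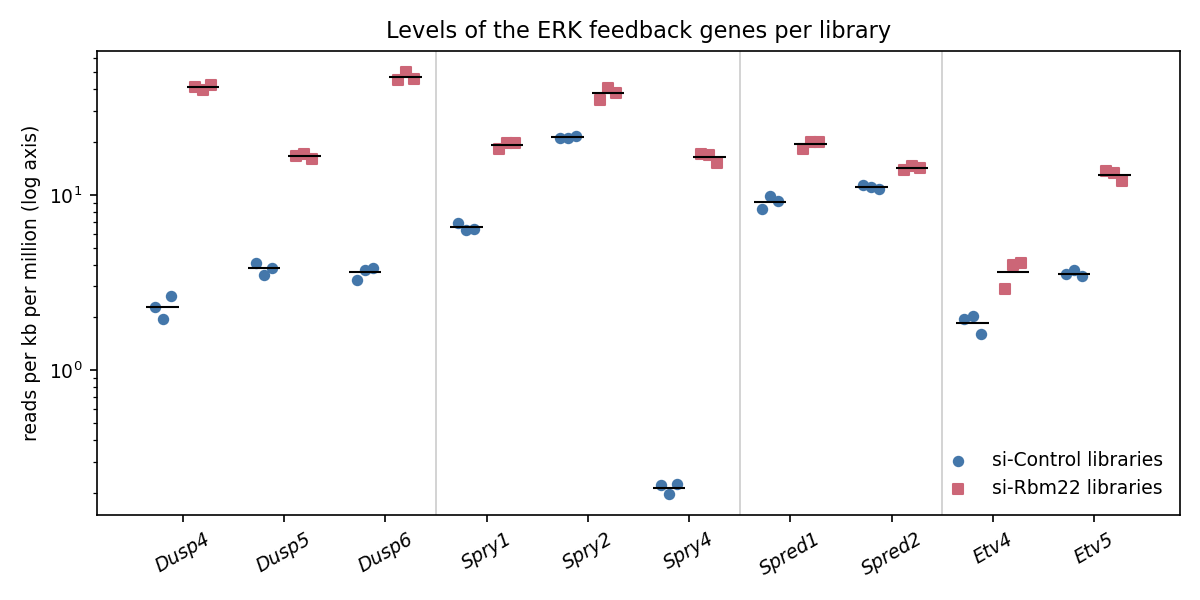
Level of each gene in each library, in CPM per kb of exon on a log axis. Blue circles are the 3 libraries labelled si-Control, red squares the 3 si-Rbm22 libraries, and black bars the group means. The squares lie above the circles for every gene. The group means are closest for Spred2 and Spry2 and farthest apart for Spry4.

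Among the phosphatase genes, Dusp4 and Dusp6 showed the wide differences and Dusp5 a smaller one. Dusp6 encodes the cytoplasmic phosphatase with strong preference for ERK (ENSMUSG00000019960, GRCm38 chromosome 10, 99263231 to 99267489, plus strand, 3 exons). It stood at 10.3, 11.7 and 12.0 CPM in si-Control and at 140.7, 157.4 and 143.5 CPM in si-Rbm22. The groups lay far apart, at means of 11.4 ± 0.925 and 147.2 ± 8.90 CPM (n = 3, SD), a ratio of 13.0. Dusp4, a nuclear phosphatase induced by ERK (ENSMUSG00000031530, chromosome 8, 34807297 to 34819894, plus strand, 4 exons), was at 6.29, 5.35 and 7.26 CPM in si-Control and 113.1, 108.7 and 115.5 CPM in si-Rbm22. Its libraries labelled si-Control varied more, with an SD of 15.2% of the mean, and its si-Rbm22 libraries little, at 3.08%. The ratio was 17.9 (log2 fold change 4.16, SE 0.093). Dusp5, the nuclear phosphatase specific to ERK (ENSMUSG00000034765, chromosome 19, 53529109 to 53542431, plus strand, 4 exons), stood at 10.1, 8.63 and 9.45 CPM against 41.3, 42.5 and 39.4 CPM. The ratio of 4.37 was the smallest of these 3 genes. An antisense gene covers 547 bases, 22.1%, of the exons of Dusp5, and reads of the 2 cannot be told apart if the counting ignored strand, which is not given in the sources used here. Per exon length, Dusp5 made up 39.1% ± 2.80 of the summed level of these 3 genes in si-Control and 15.9% ± 0.473 in si-Rbm22 (n = 3, SD). Dusp4 and Dusp6 together took the rest, Dusp4 going from 23.6% ± 2.24 to 39.2% ± 1.92.

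The Sprouty genes ranged from the widest difference of all 10 genes, in Spry4, to one of less than 1 on the log2 scale, in Spry2. Spry4 (ENSMUSG00000024427, chromosome 18, 38586247 to 38601415, minus strand, 2 exons in its longest transcript), an inhibitor of receptor signalling to RAS and RAF, was counted 38, 34 and 37 times under the label si-Control. Under si-Rbm22 the counts were 2981, 2881 and 2715. Mean levels were 1.02 ± 0.070 and 77.9 ± 4.90 CPM (n = 3, SD), which gave a log2 fold change of 6.26 (SE 0.106). With so few reads, its level in si-Control rests on the least depth of the 10 genes. Spry1 (ENSMUSG00000037211, chromosome 3, 37639947 to 37644598, plus strand) was at 20.1, 18.4 and 18.5 CPM and at 53.2, 57.5 and 57.2 CPM, a ratio of 2.95. A gene on the opposite strand covers 710 bases, 24.4%, of its exons, so the limit named for Dusp5 holds here too. Spry2 (ENSMUSG00000022114, chromosome 14, 105891947 to 105896819, minus strand) had the most RNA per exon length of these Sprouty genes in both groups. It was at 44.2, 44.2 and 45.0 CPM in si-Control and 72.3, 84.6 and 79.9 CPM in si-Rbm22. Its groups did not overlap, with a ratio of 1.78. Of the summed level of Spry1, Spry2 and Spry4 per exon length, Spry2 supplied 76.0% ± 1.04 in si-Control and 51.5% ± 1.73 in si-Rbm22. Spry4 supplied 0.763% ± 0.044 and 22.3% ± 1.88, while the share of Spry1 moved least, 23.3% ± 1.03 and 26.2% ± 0.629 (n = 3, SD).

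Spred1 and Spred2 were among the genes with small differences, Spred2 having the smallest of all. Spred1 (ENSMUSG00000027351, chromosome 2, 117121374 to 117182279, plus strand, 7 exons), whose protein binds neurofibromin, stood at 56.2, 66.6 and 62.9 CPM in si-Control and 124.4, 135.8 and 136.5 CPM in si-Rbm22. The ratio was 2.14 (log2 fold change 1.10, SE 0.070). Over 169 bases Spred1 matches a transcript of Vps35, a counted gene, at 95.3% identity, and whether reads were shared is not known. Spred2 (ENSMUSG00000045671, chromosome 11, 19924375 to 20024026, plus strand, 7 exons), the close relative of Spred1, was at 52.2, 51.3 and 50.02 CPM and at 63.6, 67.3 and 66.0 CPM. These groups did not overlap either, but the gap between the highest si-Control and the lowest si-Rbm22 library was narrow, and the ratio was 1.28 (log2 fold change 0.36, SE 0.059). Per exon length Spred2 was the more abundant of the pair in si-Control (54.9% ± 2.49 of their sum) and Spred1 in si-Rbm22 (57.8% ± 0.672; n = 3, SD). The neurofibromin gene Nf1 itself, named here after its values were seen, was at 73.2 ± 3.24 and 80.04 ± 4.08 CPM and did not pass the test (edgeR adjusted p = 0.0692). It did pass without si-Rbm22 replicate 3 (edgeR adjusted p = 0.0406), with RLE scaling (0.0472) and with the 10 CPM filter (0.0219).

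Of the PEA3 factors Etv4 and Etv5, Etv5 was the more abundant and showed the larger ratio. Etv5 (ENSMUSG00000013089, chromosome 16, 22381309 to 22439719, minus strand, 13 exons) stood at 14.5, 15.2 and 14.1 CPM in si-Control and at 55.9, 54.8 and 49.4 CPM in si-Rbm22, a ratio of 3.66. The value is uncertain to the extent that reads were shared with Gm4798, a gene annotated elsewhere. Its transcript matches 1700 bases of Etv5 at 98.6% identity, and Gm4798 is not among the counted genes. Etv4 (ENSMUSG00000017724, chromosome 11, 101769742 to 101785371, minus strand, 13 exons) was at 6.04, 6.28 and 4.98 CPM and at 9.04, 12.3 and 12.7 CPM. Its si-Rbm22 libraries were the most variable of any gene here, with an SD of 17.6% of the mean, replicate 1 being the low one. The ratio was 1.96 (log2 fold change 0.97, SE 0.161). Etv5 made up 65.7% ± 2.05 of the summed level of both per exon length in si-Control and 78.1% ± 3.92 in si-Rbm22 (n = 3, SD).

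**Figure D2:**
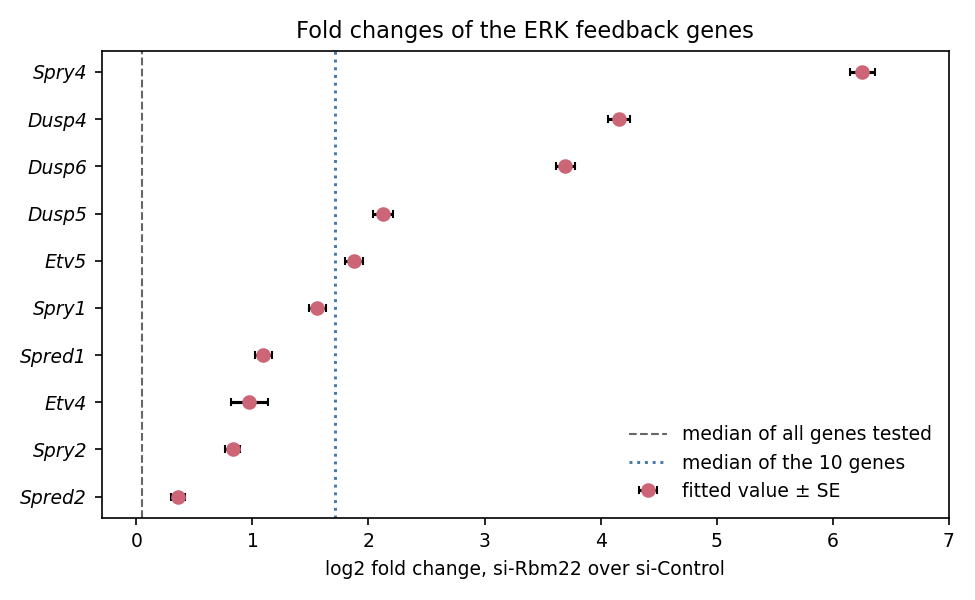
Fitted log2 fold change (si-Rbm22 over si-Control) of each gene, ordered by size, with bars for the SE. The dashed line marks the median of all genes tested, 0.05, and the dotted line that of the 10 genes, 1.72. Spry4, Dusp4 and Dusp6 stand apart above 3.5, and Spred2 lies nearest to the dashed line at 0.36.

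The order of the levels also differed between the groups. In the libraries labelled si-Control, Spry2 led with 21.3 ± 0.245 CPM per kb of exon (n = 3, SD), followed by Spred2 (11.1 ± 0.235), Spred1 (9.12 ± 0.783) and Spry1 (6.53 ± 0.339). Then came Dusp5 (3.801 ± 0.304), Dusp6 (3.62 ± 0.296) and Etv5 (3.55 ± 0.138), Dusp4 (2.30 ± 0.349), Etv4 (1.86 ± 0.223) and Spry4 (0.214 ± 0.015). Neighbours whose libraries overlapped were Dusp5 and Dusp6, Dusp6 and Etv5, and Dusp4 and Etv4. In si-Rbm22 the 2 leading genes were Dusp6 (47.0 ± 2.84) and Dusp4 (41.0 ± 1.26), which had held places 6 and 8. Spry2 (37.8 ± 2.97), Spred1 (19.5 ± 0.999), Spry1 (19.3 ± 0.819), Dusp5 (16.6 ± 0.629) and Spry4 (16.4 ± 1.03) followed. Spred2 (14.2 ± 0.415), in place 2 in si-Control, stood in place 8 in si-Rbm22, above Etv5 (13.0 ± 0.840) and Etv4 (3.65 ± 0.643). Overlapping neighbours were Dusp4 and Spry2, Spred1 and Spry1, and Dusp5 and Spry4. Summed over the listed members of each family, the DUSP genes went from 9.72 ± 0.561 to 104.6 ± 2.18 and the Sprouty genes from 28.0 ± 0.330 to 73.5 ± 3.54. The SPRED genes went from 20.2 ± 0.682 to 33.7 ± 1.39 and the PEA3 genes from 5.41 ± 0.351 to 16.7 ± 0.607. Of these sums, that of the Sprouty genes was the largest in si-Control and that of the DUSP genes in si-Rbm22. Other genes of these families are not in the sums, so whole families are not ranked. With the longest annotated transcript as the length in place of all exons, 6 of 10 genes kept their place in si-Control and all 10 in si-Rbm22.

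**Figure D3:**
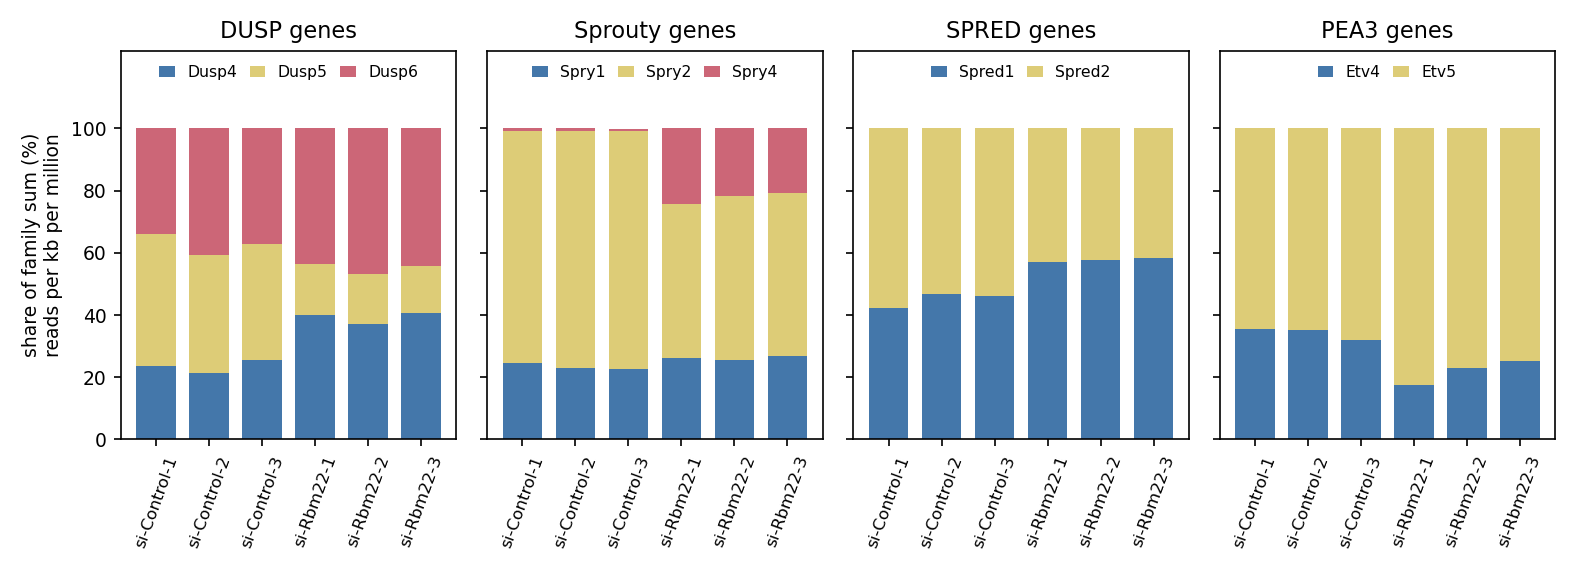
Make-up of the listed members of each family in each library, as the percentage of their summed level in CPM per kb of exon. Each bar is 1 library and each colour 1 gene. Spry4 is barely visible in the si-Control bars (0.763% on average) and takes 22.3% in si-Rbm22, and Dusp5 shrinks from 39.1% to 15.9%.

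The other phosphatases of the MAP kinase family were mostly higher in si-Rbm22 as well. Of 7 genes, 5 rose, 1 fell and 1 did not pass, with a median log2 fold change of 0.98. For comparison, 43.1% of all genes tested rose and 38.9% fell. Dusp1, an immediate early gene whose product acts on several MAP kinases, rose from 11.1 ± 0.729 to 64.4 ± 10.3 CPM (n = 3, SD), with edgeR adjusted p = 3.65e-10. Dusp16, which acts mainly on the stress kinases JNK and p38, rose 1.97-fold (edgeR adjusted p = 2.54e-08), and Dusp10, another phosphatase of the stress kinases, fell from 24.8 ± 0.347 to 11.9 ± 0.997 CPM. The cytoplasmic ERK phosphatase genes closest to Dusp6, named after their values were seen, are Dusp7 (31.0 ± 2.03 to 44.9 ± 5.07 CPM) and Dusp9 (2.03 ± 0.579 to 9.23 ± 0.856 CPM), and both rose. The lists in this and the next paragraphs were likewise drawn up with earlier results on these libraries known.

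Of 8 nearest relatives and other regulators of receptor signalling, 3 rose, 3 fell and 2 did not pass (median −0.15 on the log2 scale). Over all genes tested, 43.1% rose and 38.9% fell, and the split of this short list is read as no more than that. Flrt3, a membrane protein that promotes FGF signalling, had 6, 6 and 9 reads in si-Control and 1198, 1391 and 1159 in si-Rbm22, a ratio of 173.7 (95% counting interval 113.5 to 281). Etv1, the other PEA3 factor, rose from 1.54 ± 0.429 to 13.0 ± 1.88 CPM (edgeR adjusted p = 4.31e-09). Lrig3 and Lrig1, membrane proteins that regulate growth factor receptors, fell, Lrig3 from 78.7 ± 1.39 to 6.30 ± 0.716 CPM and Lrig1 from 94.8 ± 5.85 to 59.0 ± 7.67 CPM. The remaining family members Spry3 and Spred3, named after their values were seen, did not follow Spry4 and Spred1. Spry3 had 1.12 ± 0.152 and 0.875 ± 0.281 CPM and did not pass (edgeR adjusted p = 0.376), and Spred3 fell from 15.8 ± 0.587 to 9.89 ± 1.02 CPM.

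Further genes known to follow ERK activity were higher in 8 of 13 cases and lower in 3, with a median log2 fold change of 1.23, where 43.1% of all genes tested were higher and 38.9% lower. Epha4, an ephrin receptor gene, rose from 1.76 ± 0.280 to 71.1 ± 3.93 CPM (edgeR adjusted p = 1.93e-14, a log2 fold change of 5.34). Phlda1, which belongs with Spry and Dusp genes to common ERK readouts, rose from 24.4 ± 1.20 to 104.1 ± 8.92 CPM. The immediate early gene Egr1 fell from 163.6 ± 6.41 to 90.2 ± 3.03 CPM (edgeR adjusted p = 4.59e-09), and the membrane protein gene Emp1 fell from 696.5 ± 17.3 to 310.3 ± 71.2 CPM. The list thus held genes that moved against the 10 feedback genes. Fos, of the same immediate early class as Egr1 and named after its values were seen, rose from 4.11 ± 0.736 to 14.2 ± 0.479 CPM. Without si-Rbm22 replicate 3, 5 genes of this list were lower, Myc and Fosl1 being the ones added.

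Of 30 genes of the kinase cascade itself, from the adaptors to the kinases below ERK, 29 were tested, 17 rose and 6 fell, and the median log2 fold change was 0.35. Among all genes tested the median was 0.05, with 43.1% higher and 38.9% lower. The ribosomal S6 kinase gene Rps6ka3, a substrate of ERK, rose from 53.4 ± 0.719 to 107.4 ± 2.76 CPM (edgeR adjusted p = 6.36e-10), and Rras2, a RAS relative, from 49.1 ± 1.80 to 166.7 ± 13.9 CPM. Rras, another relative, fell from 91.8 ± 3.89 to 40.7 ± 4.11 CPM, and the adaptor gene Shc1 fell from 171.7 ± 2.57 to 99.0 ± 0.535 CPM. Mapk3, which encodes an ERK kinase and was named after its values were seen, fell from 177.0 ± 3.50 to 125.3 ± 6.93 CPM.

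Among 13 ETS factors and Capicua, 7 rose, 5 fell and 1 did not pass (median 0.25 on the log2 scale), beside 43.1% higher and 38.9% lower over all genes tested. Elk3 fell from 131.6 ± 5.20 to 32.6 ± 4.33 CPM and Ets2 from 260.0 ± 11.5 to 88.1 ± 5.16 CPM (edgeR adjusted p = 9.06e-11 and 1.83e-11). Fli1, an ETS factor of endothelial and blood cells, had 0 reads in si-Control and 518, 502 and 653 in si-Rbm22, at least 541.9-fold higher when si-Control is set at 3 counts over the group. Erg, another endothelial ETS factor, had 5, 0 and 0 reads against 524, 529 and 475, a ratio of 297.5 (95% counting interval 127.2 to 917.5). All its reads in si-Control came from replicate 1. Without that library the group was at 0 and Erg at least 328.2-fold higher, against 3 counts over the group, and without si-Control replicate 2 the ratio was 196.8. The 8 endothelial markers moved with these genes, with summed levels of 7.72 to 9.24 CPM in si-Control and 405.5 to 445.3 CPM in si-Rbm22, and their part was not tested. Cic, the Capicua gene, named after its values were seen, rose from 175.8 ± 8.95 to 209.7 ± 4.76 CPM.

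Upstream of the cascade, among 14 receptors, 8 rose, 5 fell and Ret did not pass, the median being 1.01 on the log2 scale. Since 82.0% of all genes tested passed, 43.1% higher and 38.9% lower, changes in both directions are not particular to the receptors or to the ligands. Fgfr2 rose from 10.6 ± 1.35 to 51.1 ± 2.81 CPM and Igf1r, the receptor for insulin-like growth factors, from 24.2 ± 1.99 to 113.5 ± 9.14 CPM. Fgfr1 fell from 222.4 ± 6.504 to 123.1 ± 7.69 CPM. Fgfr4, known from skeletal muscle precursors, had 353, 345 and 307 reads in si-Control and 18, 32 and 9 in si-Rbm22 (edgeR adjusted p = 2.41e-08, a log2 fold change of −4.12). The skeletal muscle precursor markers fell with it, from a summed 565.6 to 575.4 CPM to 0.133 to 0.472 CPM, and their part was not tested. The receptor list holds 3 genes that also served as markers, Pdgfra for fibroblasts and Kdr and Flt1 for endothelium.

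Among 14 ligands, 8 rose, 5 fell and Pdgfa did not pass, the median being 0.71 on the log2 scale. Fgf1 had 2, 3 and 4 reads in si-Control and 4893, 5036 and 4214 in si-Rbm22, a ratio of 1530 (95% counting interval 805.6 to 3346). Fgf18 had 2, 1 and 0 reads against 305, 318 and 324, a ratio of 307.3 (interval 104.8 to 1493). Without si-Control replicate 1, a single read was left in that group and the ratio was 610.3 (interval 109.3 to 24130). Fgf7 and Fgf10, made by mesenchyme and read by epithelial FGF receptors, ran the other way. Fgf7 had 1488, 1383 and 1466 reads in si-Control and 10, 10 and 1 in si-Rbm22, a ratio of 0.00471 (interval 0.00292 to 0.00721), and Fgf10 had 1296, 1250 and 1325 against 5, 3 and 16, a ratio of 0.00604 (interval 0.00386 to 0.00899). Most of the si-Rbm22 reads of Fgf10 were in replicate 3, without which the ratio was 0.00305 (interval 0.00132 to 0.00602). Fibroblast markers had summed levels of 21410 to 23250 CPM and 5623 to 5804 CPM in the same libraries, and cardiomyocyte markers 47.0 to 54.4 and 24600 to 38330 CPM. The part of either was not tested. These intervals cover counting error only. Under a filter of at least 10 CPM in 3 libraries, 4 ligand genes rose and 3 receptor genes fell.

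**Figure D4:**
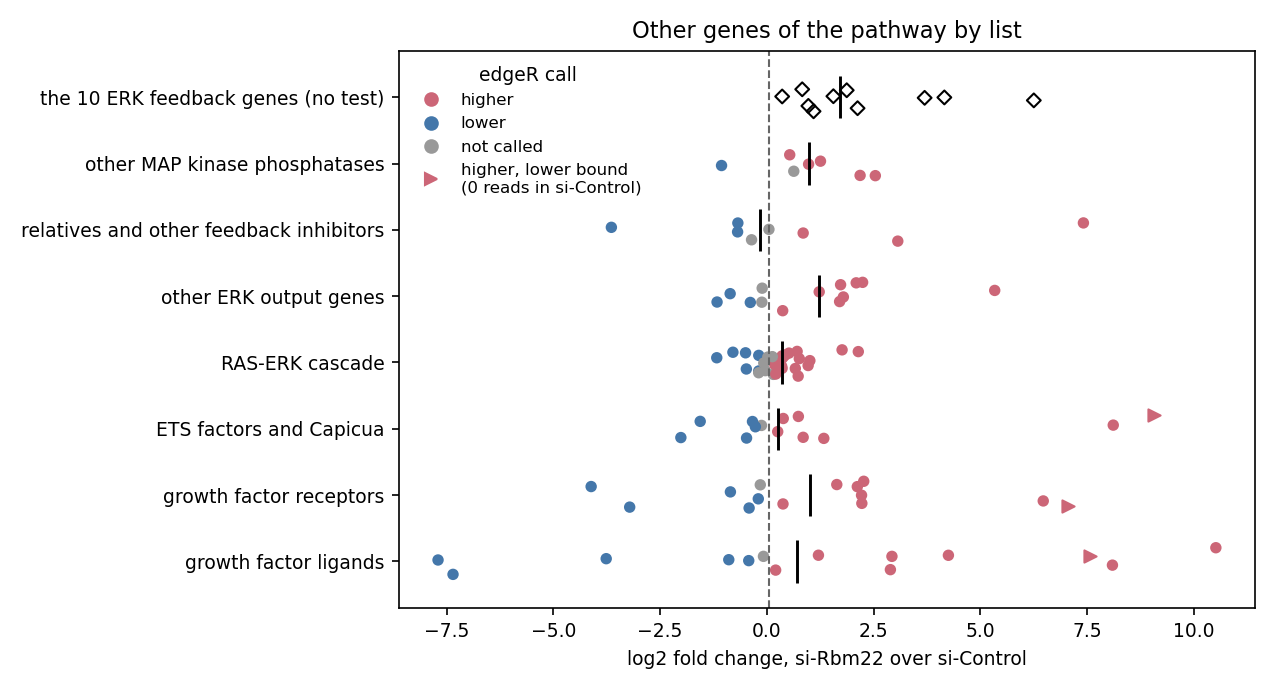
Log2 fold change (si-Rbm22 over si-Control) of each tested gene in 7 lists of other pathway genes, coloured by its edgeR call, with the 10 ERK feedback genes as open diamonds on top. Triangles are lower bounds for genes with 0 reads in si-Control, vertical bars are list medians, and the dashed line is the median of all genes tested, 0.05. The cascade genes lie between −1.17 and 2.14, and the ligands spread most widely.

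By the pattern over the 6 libraries, the gene most like Dusp6 was Ankrd1, a stretch-responsive muscle gene, at 189.3 ± 11.5 and 2285 ± 103 CPM. Likeness was taken as the root mean square difference of log2 CPM after centring each gene, and was 0.057 for Ankrd1 and 0.066 for Nfia, a nuclear factor I gene (4.23 ± 0.153 and 57.3 ± 0.697 CPM). Rragd, which encodes a small GTPase of nutrient sensing, followed at 0.084 (5.40 ± 0.667 and 72.8 ± 4.88 CPM). Kcnq3 and Apoa2, at 0.072 and 0.079, had 0 reads in si-Control and under 1 CPM in si-Rbm22, so their place rests on the prior count of 2 reads. Neither setting was fixed in advance. A first pass used a pseudocount of 0.5 CPM, and the prior count was chosen after it, with the data seen. Under the pseudocount of 0.5 CPM, Ankrd1 and Nfia were the 2 of these 5 genes among the 5 most alike. With 2 groups this far apart, the measure mostly reflects the size of the difference between them.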

How the data were processed

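RNA sequencing covered 6 libraries. Per the labels' protocols, TRIzol RNA went into a Vazyme VAHTS V6 kit. Tools named in the submitters' processing notes are HISAT2, HTSeq, fastp and DESeq2, with the build GRCm38. Their versions and parameters, the gene annotation and the strandedness were not given in the sources used here. As deposited, values are unnormalized whole-number counts of reads for each Ensembl identifier, in 1 table. Of 18951 identifiers, 18868 matched GENCODE M21 (GRCm38), the source of symbols, positions and exon lengths.

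Sample titles gave the group and replicate. The whole table was fitted with edgeR 4.0.16 in R 4.3.3 (quasi-likelihood test, TMM scaling, filterByExpr, robust, group as the only term), with Benjamini-Hochberg adjustment over 14621 genes and a threshold of 0.05. The procedure was tested on data simulated from the si-Control means and spread with few changed genes. That setting does not cover differences as many or as wide as those here. The SE is the absolute log2 fold change over the square root of the F statistic. Levels are TMM-scaled CPM, or CPM per kb of merged exons. Genes at 0 reads were set at 3 counts over the group, and ratios with few reads have exact (Clopper-Pearson) 95% intervals. Without molecular identifiers, reads are not independent molecules, and intervals and floors cover counting error only. No replicate pair agreed within sampling noise (chi-square per degree of freedom 4.52 to 30.9). The pairs with si-Rbm22 replicate 3 stood apart, at 30.1 and 30.9. The pair of si-Rbm22 replicates 1 and 2 was at 10.5, and pairs within si-Control at 4.52 to 7.045.

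The members and lists were chosen with earlier results on these data known. Named genes were all members, Rbm22, up to 2 rises and 2 falls of smallest p per list, and the 5 genes most like Dusp6. Alternatives were RLE scaling, no scaling, mitochondrial transcripts left out, other filters, each library left out, a replicate block, limma-voom (limma 3.58.1), DESeq2 1.42.0, a threshold of 0.01 and another exon length. Protein sequences were not analysed here. The libraries in doubt, all 3 labelled si-Control, could not be left out. The values of 1 pathway gene are not reported here.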

Additional observations from a re-analysis of the deposited data

How the results depend on the processing

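All 139 log2 fold changes of the 10 genes under the alternatives kept their sign and stayed within the spread between replicates. Dusp6 ranged from 3.63 to 3.74, Spry4 from 6.18 to 6.30, Etv4 from 0.86 to 1.10 and Spred2 from 0.33 to 0.40. With 10 CPM in 3 libraries as the filter, Etv4 was not tested, 9 members were called and their median log2 fold change became 1.91. The same filter left 3 receptor genes lower, where Fgfr4 was no longer tested and Pdgfra was tested but lost its call (edgeR adjusted p = 0.0592), and 4 ligand genes higher. With libraries left out in turn, the number of other ERK output genes called lower ranged from 3 to 5. The longest transcript as length kept 6 of 10 places in the si-Control order. Of 1457 calls of the other pathway genes under the alternatives, 1439 stayed on their side of the threshold, 12 were lost, 6 were gained and none was reversed. Scaling moved the median of all genes by under 0.1. TMM and RLE both take most genes as unchanged, whereas 82.0% of the genes tested passed the threshold here. Their closeness therefore cannot show that the scaling is right. Same-numbered libraries did not deviate together (correlations −0.015, 0.012 and 0.069), so the numbers are not taken as pairs. With the replicate block, 6264 genes were called higher and 5681 lower, against 6299 and 5684 without it, and no list count moved by more than 1.5 times. Depth limits Spry4 in si-Control, at 34 to 38 reads per library.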
